A study of Saccharomyces cerevisiae with 8 samples.

Results

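HRP1 and the 4 subunit genes of cleavage factor IA, RNA14, RNA15, PCF11 and CLP1, were followed at the RNA level in budding yeast while the nuclear poly(A)-binding protein Nab2 was pulled out of the nucleus. The genes were chosen by their systematic names, HRP1 as YOL123W, RNA14 as YMR061W, RNA15 as YGL044C, PCF11 as YDR228C and CLP1 as YOR250C. Each name matched 1 row, so the set has 5 of the 7658 features left in the table after removal of repeats. None of the 5 rows carries a further gene name, and all 5 passed the filter on low counts.

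Strain Y3284 carries NAB2-FRB::HIS. It was sampled at 0 min (no rapamycin), 15 min and 30 min of rapamycin at 1 µg/ml. The control strain Y2615 lacks the FRB tag and was sampled after 30 min at the same dose. Both strains carry tor1-1, fpr1::loxPLEU2-LoxP and RPL13A-2xFKBP12::LoxP-TRP1-LoxP, so the Rpl13a anchor and the changes that make cells resistant to rapamycin are shared by every group. The labels give the control as MATa and name no mating type for Y3284. Each group has 2 biological replicates, and the 30 min library numbered 3 in its title is replicate 2 in its description, which was followed. The 4 libraries of Y3284 with 15 or 30 min of rapamycin are called anchored and the other 4 unanchored. Anchoring moves the Nab2 protein and leaves its gene in place, so the NAB2 RNA, given in CPM (read counts at a common library size), at 263.8 and 211.5 in the 2 libraries at 0 min, 164.4 and 173.9 in those at 15 min, 203.0 and 227.6 in those at 30 min, and 120.0 and 183.6 in the 2 control libraries, does not check the depletion.

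The 3′ end of a yeast mRNA is made by cutting the nascent RNA and adding a poly(A) tail. Hrp1, also called cleavage factor IB, binds UA-rich efficiency elements in the RNA. In cleavage factor IA, Rna15 binds A-rich RNA, Rna14 is the scaffold that holds Rna15, Pcf11 binds the tail of RNA polymerase II, and Clp1 is an ATP-binding protein that contacts Pcf11. Hrp1 and Nab2 are both carried into the nucleus by the import receptor Kap104. The HRP1 and NRD1 genes are known for early termination of their own transcription through the pathway of Nrd1, Nab3 and Sen1.

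The RNA letters that Hrp1 is known for are shown first, because they lie downstream of the genes measured here. In the 300 bases after each stop codon in RefSeq build R64, the word TATATA was found 3 times for HRP1, 2 times each for RNA14, RNA15 and PCF11, and 1 time for CLP1. Matches that overlap one another were counted separately. The word is its own reverse complement, so the counts on the other strand are the same. Of 5997 genes, 55.4% hold it at least 1 time in that window and 12.5% hold it 3 times or more. The first match after each stop codon is given with its flanks, on the strand of the gene and with the word in capitals. The HRP1 run of TA letters holds all 3 of its overlapping matches. A match is a description of the letters and not a mapped site of binding.
HRP1, chrXV:89524-89553, plus strand: agcaatttataaTATATATATAcatgtacg
RNA14, chrXIII:394796-394825, plus strand: ttaataaataggTATATAtgaatatttata
RNA15, chrVII:416033-416062, minus strand: ctcaaagttcggTATATAgcttacatctca
PCF11, chrIV:921895-921924, minus strand: agcagaactgcaTATATAcatttaaattta
CLP1, chrXV:800848-800877, minus strand: ttttccaacgctTATATAttaacaatattg

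The word AATAAA, an A-rich positioning element, was found 2 times for RNA14 in the same window and not for the other 4 genes on their own strand, and 39.2% of all genes hold it. On the other strand it was found 2 times for CLP1, 1 time for PCF11 and not for the other 3 genes. In the 300 bases before the start codon, the words GTAA and GTAG, known for Nrd1, together matched 0 times for HRP1, 3 for RNA14, 2 for RNA15, 2 for PCF11 and 1 for CLP1, with 89.3% of 6001 genes holding at least 1. On the other strand HRP1 had 5, RNA14 5, RNA15 1, PCF11 4 and CLP1 3 matches. The words TCTT and CTTG, known for Nab3, matched 3 times for HRP1, 4 each for RNA14, RNA15 and PCF11, and 8 for CLP1, where 93.4% of genes hold at least 1. On the other strand HRP1 had 7, RNA14 5, RNA15 7, PCF11 3 and CLP1 4 of them. The 8 matches before CLP1 are a number reached by 6.62% of genes. NRD1 had 1 match of the Nrd1 words and 2 of the Nab3 words on its own strand. The window is set by the start codon and not by the transcript, and coding sequence was not searched. A count of 0 there does not show that the RNA lacks such words.

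Total counts per library ran from 4832947 to 17023011, and although the labels say that S. pombe RNA was added to each sample as a spike-in, the table used here held 0 spike-in features. Changes in RNA per cell were therefore not measured, and levels are CPM, read counts brought to a common library size with TMM factors. In 15 min replicate 1, 30 min replicate 2 and control replicate 1, between 24.4% and 28.2% of features were at 0 counts, against 9.18% to 15.4% in the other 5 libraries. HRP1 rests on 3459 to 14570 counts in each library and the other 4 genes on 6 to 782. Tests are edgeR's quasi-likelihood test over 6191 features with Benjamini-Hochberg adjustment, and a feature is called where its adjusted p is under 0.05. Fewer transcripts of other genes and more HRP1 RNA per cell cannot be told apart on this scale.

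HRP1 RNA was high in all 4 anchored libraries and low in the other 4. HRP1 (feature ST2998, chromosome XV, coding span 87844 to 89448) had 409.7 and 415.6 CPM before rapamycin, then 1144.6 and 1005.9 after 15 min and 1248.3 and 1226.1 after 30 min of anchoring, against 467.5 and 387.5 in control libraries. No anchored library overlapped an unanchored one, while the control and 0 min libraries overlapped each other. The 95% Clopper-Pearson intervals, which cover counting error only, ran from 982.3 to 1029.9 CPM in the lowest anchored library and from 453.3 to 482.1 in the highest unanchored one.

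**Figure D1:**
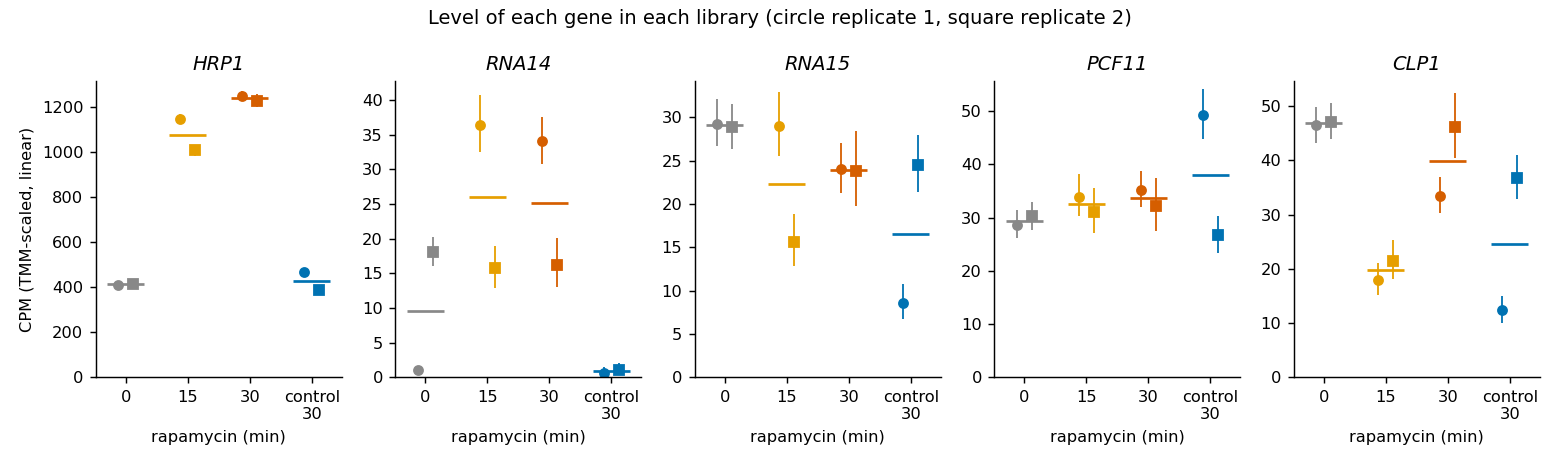
CPM on a linear axis from 0 for each gene (panels) in each library, against minutes of rapamycin; circles are replicate 1, squares replicate 2, short lines the mean of 2 libraries, and bars 95% Clopper-Pearson intervals of the count. HRP1 lies at 1005.9 CPM or above in the 4 anchored libraries and at 467.5 or below in the other 4, while RNA14 ranges from 1.01 to 18 CPM between the 2 libraries at 0 min.

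The rise was present at 15 min, and the step on to 30 min did not pass the test. HRP1 was 2.61 times higher at 15 than at 0 min (log2 fold change 1.38 ± 0.24 SE, 95% interval 0.87 to 1.89, edgeR adjusted p = 0.025), and 0.162% of all features tested were called in that comparison. It was 3 times higher at 30 than at 0 min (1.58 ± 0.24, edgeR adjusted p = 0.00251, 2.76% of features called). Between 30 and 15 min the log2 difference was 0.20 ± 0.24 with a 95% interval from -0.30 to 0.70 (edgeR adjusted p = 0.852, 0.452% of features called). Both libraries at 30 min lay above both at 15 min, by less than the error of the fit.

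Against the untagged strain, HRP1 gave values of the same size. At 30 min it was 2.89 times higher in the anchor-away strain than in the control (1.53 ± 0.24, 95% interval 1.02 to 2.04, edgeR adjusted p = 0.00122), where 6.07% of features were called. At 15 min of anchoring it was 2.52 times higher than in the control at 30 min (1.33 ± 0.24, edgeR adjusted p = 0.0147, 1.02% of features called), and there the times differ as well as the tag. The control itself differed from the anchor-away strain at 0 min by 0.05 ± 0.24, with an interval from -0.45 to 0.55 (edgeR adjusted p = 1, 0.0808% of features called). The comparisons with 0 min share the same 2 libraries, and so do those with the control.

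The replicates of HRP1 were close. Its within-group SD was 0.12 log2 units, against a median of 0.57 over all 6191 features and 0.24 over the 500 features nearest to it in mean count. With libraries scaled by mitochondrial genome features or by snoRNA features, the HRP1 calls against 0 min and against the control were lost, at log2 values from 0.55 to 1.35. Above the median of all features, HRP1 stood at 1.44 as reported, 1.44 by mitochondrial and 1.45 by snoRNA features at 15 over 0 min. At 30 over 0 min these distances were 1.63, 1.62 and 1.65. In these 2 comparisons mitochondrial scaling called 0.0162% and 0.0808% of all features, and snoRNA scaling 1.47% and 5.27%. The call at 15 over 0 min was also lost without 15 min replicate 1 (edgeR adjusted p = 0.405), without 15 min replicate 2 (edgeR adjusted p = 0.057) and without the 3 libraries with most features at 0 (edgeR adjusted p = 0.197), with log2 values of 1.31, 1.48 and 1.28. The call of 15 min over the control was lost without 15 min replicate 1 or control replicate 2 (log2 values 1.26 and 1.21). It was also lost without the 3 libraries (1.37). The call of 30 over 0 min was lost when those 2 groups were fitted alone (1.68, edgeR adjusted p = 0.0732). That fit called 0 of its 6070 features, so a call of 30 over 0 min lost there does not set a gene apart. This holds for the genes named below as well.

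**Figure D2:**
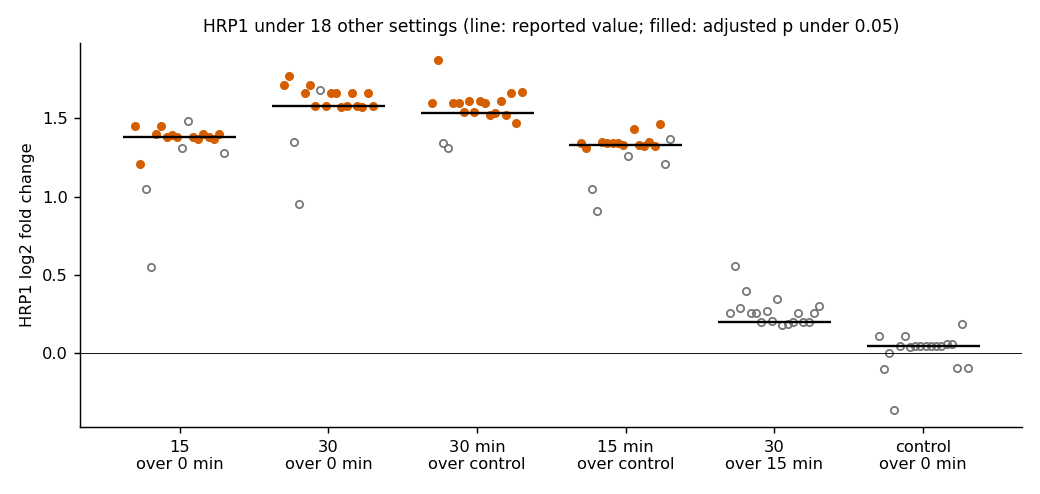
HRP1 log2 fold change (vertical axis) in each comparison under 18 other settings (points, filled where the adjusted p is under 0.05) with the reported value as a line. Every point of the 4 comparisons of anchored with unanchored groups lies above 0, from 0.55 to 1.87, and the points of the control over 0 min lie on both sides of 0.

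RNA14, the scaffold gene, was the second gene of the set with a call, and its libraries did not repeat well. RNA14 (feature ST2549, chromosome XIII, coding span 392755 to 394788) had 16 and 299 counts in the 2 libraries at 0 min, 311 and 108 in those at 15 min, 398 and 84 in those at 30 min, and 6 and 10 in the 2 control libraries. In CPM the 0 min libraries held 1.01 and 18, those at 15 min 36.4 and 15.7, those at 30 min 34.1 and 16.2, and the control ones 0.686 and 1.12. All 4 anchored libraries lay above both control libraries, and 0 min replicate 2 lay among the anchored ones.

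At 30 min RNA14 was higher than in the control by 4.78 ± 1.19 log2 units (95% interval 2.27 to 7.30, edgeR adjusted p = 0.0234), and at 15 min by 4.83 ± 1.19 (edgeR adjusted p = 0.0707), which did not pass. Against 0 min its values were 1.45 ± 1.01 at 15 min (edgeR adjusted p = 0.908) and 1.41 ± 1.01 at 30 min (edgeR adjusted p = 0.637). The control over 0 min gave -3.38 ± 1.13 (edgeR adjusted p = 1), a value that was -0.16 without 0 min replicate 2 and -4.28 without 0 min replicate 1 (edgeR adjusted p = 0.0395). The 2 libraries at 0 min differed 17.8-fold, and the within-group SD of RNA14, 1.51 log2 units, compares with a median of 0.78 over the 500 features nearest in count. The call at 30 min over the control was lost without control replicate 1 (edgeR adjusted p = 0.189), without control replicate 2 (edgeR adjusted p = 0.111), without 30 min replicate 1 (edgeR adjusted p = 0.0616) and without the 3 libraries with most features at 0 (edgeR adjusted p = 0.582), with log2 values from 4.15 to 5.25.

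RNA15, which encodes the RNA-binding partner of Rna14, passed no test. RNA15 (feature ST4856, chromosome VII, coding span 416146 to 417036) had 29.3 and 28.9 CPM before rapamycin, then 29 and 15.6 after 15 min and 24 and 23.8 after 30 min of anchoring, against 8.58 and 24.5 in control libraries. The 15 min and control libraries overlapped each other and control replicate 1 was the lowest of all. Its log2 fold change was -0.38 ± 0.64 at 15 over 0 min, -0.29 ± 0.64 at 30 over 0 min and 0.53 ± 0.64 at 30 min over the control, with edgeR adjusted p from 0.695 to 1 and intervals that reach from -1.73 to 1.88.

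PCF11, which encodes the subunit that meets RNA polymerase II, stayed between 28.6 and 35.2 CPM in the 6 libraries of the anchor-away strain and passed no test. PCF11 (feature ST4289, chromosome IV, coding span 921926 to 923806) had 28.6 and 30.2 CPM in the 2 libraries at 0 min, 33.9 and 31.1 in those at 15 min, 35.2 and 32.1 in those at 30 min, and 49.2 and 26.7 in the 2 control libraries. The 4 anchored libraries lay just above the 2 at 0 min and between the 2 of the control. Its log2 fold change was 0.15 ± 0.49 at 15 over 0 min (95% interval -0.89 to 1.18), 0.19 ± 0.49 at 30 over 0 min (-0.85 to 1.23) and -0.17 ± 0.49 at 30 min over the control (-1.21 to 0.87), with edgeR adjusted p from 0.888 to 1. These directions turned under other scalings.

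CLP1, which encodes the ATP-binding subunit, had its lowest group mean at 15 min without passing the test. CLP1 (feature ST6880, chromosome XV, coding span 800970 to 802307) had 46.5 and 47.1 CPM before rapamycin, then 17.9 and 21.5 after 15 min and 33.4 and 46.2 after 30 min of anchoring, against 12.4 and 36.7 in control libraries. Both 15 min libraries lay below both at 0 min and below both at 30 min, and the control libraries fell on either side of them. The log2 fold change was -1.25 ± 0.56 at 15 over 0 min (95% interval -2.42 to -0.07 before adjustment, edgeR adjusted p = 0.652), -0.23 ± 0.55 at 30 over 0 min (edgeR adjusted p = 0.946), 0.70 ± 0.55 at 30 min over the control (edgeR adjusted p = 0.504) and 1.01 ± 0.56 at 30 over 15 min (edgeR adjusted p = 0.562).

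**Figure D3:**
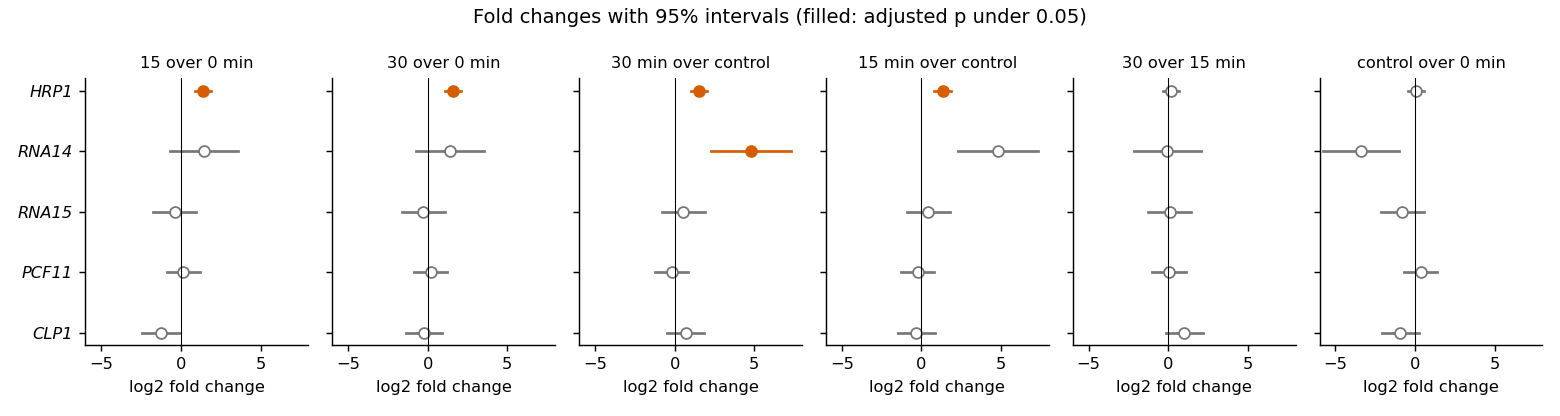
Log2 fold change (horizontal axis, points) with 95% intervals before adjustment (bars) for the 5 genes (rows) in 6 comparisons (panels); filled points have an edgeR adjusted p under 0.05. HRP1 is filled in the 4 comparisons of anchored with unanchored groups and RNA14 in 30 min over control alone, with an interval from 2.27 to 7.3.

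Levels of different genes were set side by side per kilobase of coding sequence, since the counted span of a feature is not in the table. HRP1 was the most abundant of the 5 in every group, averaging 257.1 ± 2.58 CPM per kilobase before rapamycin, 670.0 ± 61.1 after 15 min and 770.8 ± 9.76 after 30 min of anchoring, against 266.4 ± 35.2 for the control libraries (SD over 2 libraries). At 0 min, where no neighbours in the order overlapped, CLP1 followed with 35.0 ± 0.338, then RNA15 with 32.7 ± 0.333, PCF11 with 15.6 ± 0.602 and RNA14 with 4.68 ± 5.91 CPM per kilobase. At 15 min the means fell in the order RNA15 (25.0 ± 10.7), PCF11 (17.3 ± 1.05), CLP1 (14.7 ± 1.92) and RNA14 (12.8 ± 7.19). There RNA15 overlapped PCF11, and RNA14 overlapped RNA15, PCF11 and CLP1. At 30 min the order was CLP1 (29.8 ± 6.77), RNA15 (26.8 ± 0.16), PCF11 (17.9 ± 1.17) and RNA14 (12.4 ± 6.21), and CLP1 and RNA15 overlapped. In the control PCF11 (20.2 ± 8.47), RNA15 (18.6 ± 12.7) and CLP1 (18.3 ± 12.9) overlapped one another, and RNA14 lay below all of them at 0.444 ± 0.151.

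The ratio of HRP1 counts to the summed counts of the other 4 genes does not depend on how libraries are scaled. It was 3.89 and 3.34 in the 2 libraries at 0 min, 9.76 and 12 in those at 15 min, 9.85 and 10.4 in those at 30 min, and 6.6 and 4.35 in the 2 control libraries. All 4 anchored libraries were above the other 4. Control replicate 1, with 619 counts over the 4 genes, came nearest to them. The ratio to PCF11 alone was 14.3 and 13.7 before rapamycin, then 33.7 and 32.3 after 15 min and 35.5 and 38.2 after 30 min of anchoring, against 9.5 and 14.5 in control libraries.

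**Figure D4:**
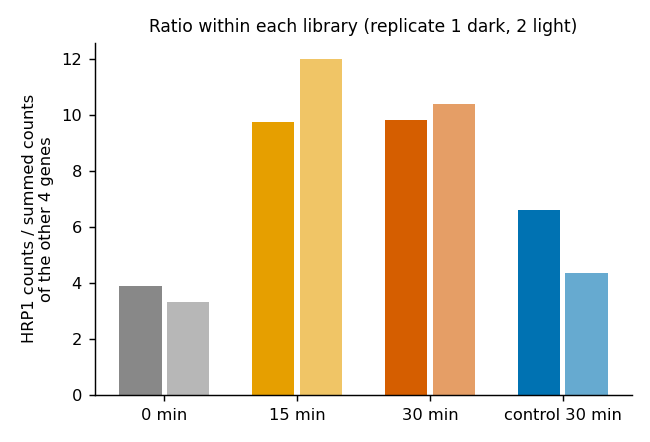
HRP1 counts divided by the summed counts of RNA14, RNA15, PCF11 and CLP1 (vertical axis, linear from 0) in each library, grouped by time and strain, with replicate 1 dark and replicate 2 light. The 4 anchored libraries stand between 9.76 and 12 and the other 4 between 3.34 and 6.6.

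Over the 8 libraries, the log2 CPM of the 5 genes did not follow one pattern. As a description over libraries that share the same group structure and depth, Pearson's r with HRP1 was 0.78 for RNA14, 0.14 for PCF11, 0.07 for RNA15 and -0.16 for CLP1. RNA15 and CLP1 went together with r = 0.74, and each ran against PCF11, with r = -0.78 for RNA15 and -0.76 for CLP1. Control replicate 1 was the lowest of the 8 for RNA15 and CLP1 and the highest for PCF11. That library has 28.2% of features at 0 counts, and the part of this in those correlations was not tested.

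The features most like HRP1 over the 8 libraries, by Pearson's r of log2 CPM among 4705 features with a mean of at least 50 counts, were TRF5 (r = 0.989), CUT866 (0.974), PCL10 (0.971), CUT445 (0.966) and DUR12 (0.965). TRF5 encodes a poly(A) polymerase of nuclear RNA surveillance, PCL10 a cyclin that acts with the kinase Pho85, DUR12 (DUR1,2) urea amidolyase, and CUT866 and CUT445 are cryptic unstable transcripts. TRF5 had 32.9 and 35.5 CPM in the 2 libraries at 0 min, 160.5 and 96.2 in those at 15 min, 153.3 and 160.1 in those at 30 min, and 47.7 and 29.8 in the 2 control libraries. PCL10 had 12.2 and 11.9 CPM before rapamycin, then 23.1 and 29.3 after 15 min and 27.6 and 25.5 after 30 min of anchoring, against 13.8 and 10.8 in control libraries.

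These features were picked for their likeness to HRP1 over the same 8 libraries, so a gap between anchored and unanchored libraries follows from that choice, and their values and calls are a description. TRF5 was called in the same 4 comparisons as HRP1, with log2 fold changes of 2.20 ± 0.36 at 30 over 0 min (edgeR adjusted p = 0.00411) and 2.02 ± 0.36 at 30 min over the control (edgeR adjusted p = 0.00312). All 4 calls were lost with mitochondrial scaling, and all but that of 30 min over the control with snoRNA scaling. The call at 15 over 0 min was also lost by total library size, with the 2 groups alone, and without 15 min replicate 1, 0 min replicate 1 or the 3 libraries with most features at 0. The call at 30 over 0 min was lost with the 2 groups alone, and that of 15 min over the control without 15 min replicate 1, control replicate 2 or the 3 libraries. PCL10 was called in none, at 1.14 ± 0.64 for 30 over 0 min (edgeR adjusted p = 0.459), nor was CUT445, at 2.27 ± 0.74 (edgeR adjusted p = 0.117). DUR12 was called at 30 over 0 min, at 0.98 ± 0.25 (edgeR adjusted p = 0.0463), a call that held under 8 of 18 other settings and was lost with both feature scalings, with the replicate block, with the 2 groups alone, and without either 15 min library, either 0 min library, 30 min replicate 2 or the 3 libraries. CUT866 was called at 30 min over the control, at 6.37 ± 1.80 (edgeR adjusted p = 0.0422), from 22.5 and 17 CPM at 30 min against 0.458 and 0 in the control, and this call was lost with mitochondrial scaling and without either 30 min library, 15 min replicate 1, control replicate 2 or the 3 libraries. Of the other 4 genes of the set, RNA14 was most like YOR296W (r = 0.981), RNA15 most like RBH2 (0.966), PCF11 most like STP2 (0.965) and CLP1 most like FHL1 (0.969). None of these was called in any comparison.

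**Figure D5:**
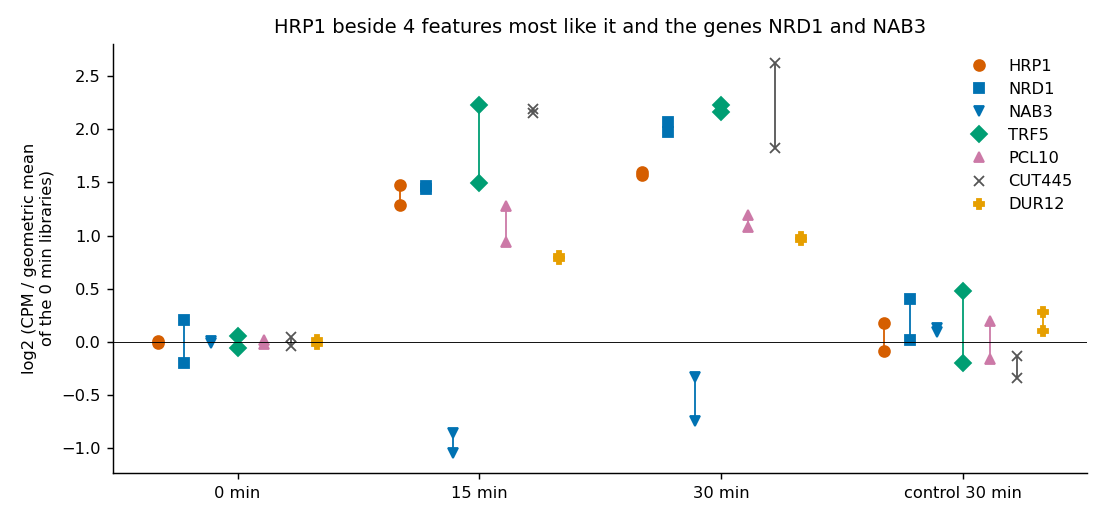
Log2 of CPM over the geometric mean of the 0 min libraries (vertical axis) for HRP1, 4 of the 5 features most like it, and NRD1 and NAB3, by group; each mark is 1 library and lines join the 2 libraries of a gene in a group. HRP1, NRD1, TRF5, PCL10, CUT445 and DUR12 lie above 0 in all anchored libraries, NAB3 lies below 0 there, and CUT866, at 0 counts in 0 min replicate 1, is not drawn.

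NRD1, a further gene known for self-limiting early termination, rose beside HRP1, and NAB3, which encodes the partner of Nrd1, did not. The part of early termination in this was not tested. NRD1 had 142.1 and 107.4 CPM in the 2 libraries at 0 min, 341.4 and 335.5 in those at 15 min, 484.1 and 519.7 in those at 30 min, and 124.7 and 162.9 in the 2 control libraries. It was higher at 15 min than in the control by 1.23 ± 0.26 log2 units (edgeR adjusted p = 0.0317) and at 30 min by 1.80 ± 0.26 (edgeR adjusted p = 0.000769). All 4 NRD1 calls against 0 min and the control were lost with mitochondrial scaling and with snoRNA scaling (edgeR adjusted p = 0.299 and 0.101 at 30 min over the control). The call of 15 min over the control was also lost without either 15 min library, control replicate 1 or the 3 libraries with most features at 0, that at 15 over 0 min without either 15 min library, 0 min replicate 2, the 3 libraries or with the 2 groups alone, and that at 30 over 0 min with the 2 groups alone. NAB3 had 350.3 and 354.5 CPM before rapamycin, then 194.2 and 170.2 after 15 min and 210.1 and 279.3 after 30 min of anchoring, against 375.0 and 386.3 in control libraries. All 4 anchored libraries of NAB3 lay below the other 4. NAB3 fell at 15 min against the control, by 1.06 ± 0.25 log2 units (edgeR adjusted p = 0.0484), a call that held under 9 of 18 other settings and was lost by RLE factors, with both feature scalings, with the replicate block, and without any 1 of the 4 libraries compared or the 3 libraries. Its values against 0 min did not pass, at -0.95 ± 0.25 for 15 min (edgeR adjusted p = 0.185) and -0.53 ± 0.25 for 30 min (edgeR adjusted p = 0.328). SEN1, which encodes the helicase of that pathway, passed in no comparison by edgeR, DESeq2 or limma-voom.

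Of the genes listed for early termination, 6 of 7 were tested, and IMD2 was not analysed here. HRP1 and NRD1 rose in each comparison of anchored with unanchored groups, and URA2, URA8, ADE12 and IMD3, genes of nucleotide synthesis, passed in none by edgeR. URA8 was called by limma-voom at 30 min over the control, where that tool called 8.5% of features, and URA2 by DESeq2 and limma-voom at 30 over 15 min, where they called 1.79% and 1.23%. The median log2 fold change of the 6, HRP1 and NRD1 included, was 0.34 at 15 over 0 min, 0.11 at 30 over 0 min, 0.04 at 30 min over the control and 0.24 at 15 min over the control, against -0.06, -0.05, 0.06 and 0.04 over all features. HRP1 and NRD1 had the highest values of the 6 each time, so these medians do not describe the other genes. IMD3, URA2, URA8 and ADE12 were at 0.13, 0.54, -0.82 and -0.67 at 15 over 0 min. At 30 min over the control they were at -0.53, -0.48, -1.01 and 0.55. URA2, the most abundant gene of that list, had 1124.0 and 1205.1 CPM in the 2 libraries at 0 min, 1746.1 and 1634.8 in those at 15 min, 1032.9 and 676.5 in those at 30 min, and 1247.4 and 1143.8 in the 2 control libraries.

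The cleavage and polyadenylation factor is the larger complex that cuts and extends the RNA together with cleavage factor IA. Its 15 genes, PAP1 included, had 0 calls in all 6 comparisons by edgeR and by limma-voom. Over the comparisons edgeR called 0.0808% to 6.07% of all features and limma-voom 0.113% to 8.5%. Beside such shares, 0 of 15 does not set the complex apart. By edgeR 1 of the 15 had an unadjusted p under 0.05 at 30 over 0 min, 3 at 30 min over the control and 1 at 15 min over the control, where 14.7%, 20.8% and 13.1% of all features had one, and none of the 15 had one in the other 3 comparisons. DESeq2 called 2, CFT1 and REF2, at 30 min over the control, where it called 11% of all features. REF2, which helps the complex act on small nucleolar RNAs, had 34.4 and 49.3 CPM at 30 min against 9.49 and 9.3 CPM in the control (2.15 ± 0.64, edgeR adjusted p = 0.0553). These 2 groups did not overlap for REF2, CFT1, YSH1 and PFS2, which were higher at 30 min, or for PTA1 and SYC1, which were lower. The share of all features without overlap was not counted. With 2 against 2 libraries a full gap has an exact permutation p of 0.33, so these gaps do not set the complex apart. The median log2 fold change of the 15 was -0.06 at 15 over 0 min, 0.28 at 30 over 0 min, 0.29 at 30 min over the control and -0.28 at 15 min over the control, against -0.06, -0.05, 0.06 and 0.04 over all features. PTA1, the most abundant of them and a scaffold of the complex, had 273.2 and 168.4 CPM before rapamycin, then 197.4 and 227.1 after 15 min and 212.9 and 218.5 after 30 min of anchoring, against 276.7 and 307.4 in control libraries, with overlap between the anchored and the 0 min libraries.

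Among the nuclear RNA-binding and import genes NAB2, PAB1, NPL3 and KAP104, none passed in any comparison by edgeR, DESeq2 or limma-voom. These tools called 0.0808% to 6.07%, 0.226% to 11% and 0.113% to 8.5% of all features over the comparisons, so 0 of 4 does not set these genes apart. By edgeR, at most 1 of the 4 had an unadjusted p under 0.05 in a comparison. At control over 0 min, where 1.78% of all features had one, it was NAB2 (-0.65 ± 0.28 log2 units, edgeR unadjusted p = 0.031). It was NPL3 at 30 min over the control, where 20.8% had one. PAB1 was the gene at 15 over 0 min (6.83%), 15 min over the control (13.1%) and 30 over 15 min (10.6%). KAP104, the import receptor of Hrp1, stayed between 118.2 and 157.5 CPM in the 8 libraries. PAB1, the most abundant, which encodes the main poly(A)-binding protein of the cytoplasm, had 1448.9 and 1445.7 CPM in the 2 libraries at 0 min, 2106.2 and 2109.0 in those at 15 min, 1494.1 and 1438.3 in those at 30 min, and 1301.0 and 1555.0 in the 2 control libraries. NPL3 shares its row with YDR433W, so its counts belong to both names.

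No annotated gene overlaps the coding span of any of the 5 genes in build R64, and 8 genes lie within 500 bases of them. SIR4, which encodes a silencing protein and faces PCF11 end to end with 278 bases between the coding spans, had 26.6 and 44.9 CPM before rapamycin, then 107 and 63.8 after 15 min and 96.1 and 140 after 30 min of anchoring, against 16.8 and 23 in control libraries. The 4 anchored libraries of SIR4 lay above the other 4. So did those of RIM8 (49.4 to 89.3 against 31.6 to 36.5 CPM). The anchored libraries lay below the other 4 for DST1 (27.7 to 55.3 against 59.6 to 85.5 CPM) and for SMF1. Among the 8 neighbours a gap of this kind was not particular to SIR4, and SAM37, ARG7, APC5 and TUM1 had none. The share of all features with such a gap was not counted, so whether these neighbours differ from other features was not tested. SIR4 was higher at 30 min than in the control by 2.57 ± 0.44 log2 units (edgeR adjusted p = 0.00211), at 15 min than in the control by 2.10 ± 0.43 (edgeR adjusted p = 0.0301) and at 30 than at 0 min by 1.72 ± 0.42 (edgeR adjusted p = 0.033). All 3 SIR4 calls were lost with mitochondrial scaling, and all but that of 30 min over the control with snoRNA scaling. The call of 15 min over the control was also lost without 15 min replicate 1, control replicate 1 or the 3 libraries with most features at 0, and that at 30 over 0 min without 30 min replicate 2, 0 min replicate 1 or the 3 libraries and with the 2 groups alone. Of the other 7 neighbours, APC5 did not pass the filter on low counts and the other 6 passed in no comparison by edgeR, which called 0.0808% to 6.07% of all features. The 7 were SMF1 beside HRP1, SAM37 and ARG7 beside RNA14, DST1 and RIM8 beside RNA15, and APC5 and TUM1 beside CLP1, and APC5 stayed at 0.6 CPM or below in every library. SMF1, a metal transporter gene that faces HRP1 with 243 bases between the coding spans, had 31.3 and 37.4 CPM in the 2 libraries at 0 min, 7.02 and 10.6 in those at 15 min, 20 and 0 in those at 30 min, and 28.6 and 25.4 in the 2 control libraries. Its log2 value was -1.96 ± 1.26 at 15 over 0 min (edgeR adjusted p = 0.899). The libraries keep strand per the labels, the strand setting of the counting is not given in the sources used here, and reads that run past a gene's end into its neighbour were not tested.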

How the data were processed

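Total RNA was depleted of ribosomal RNA, made into strand-specific libraries and sequenced, per the labels' protocols. The authors deposited raw read counts per feature for 8 libraries. GSNAP, HTSeq 0.5.3, bedtools 2.17.0 and build R64 are named in the submitters' processing notes, without their roles, and the counting rule is not given in the sources used here. Of 7711 rows, 29 exact repeats and 24 entries shadowing a gene were removed. The table has no coordinates, so positions come from RefSeq R64, and levels per kilobase use coding length.

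Counts were tested with edgeR 4.0.16 in R 4.3.3, with TMM scaling, filterByExpr, a quasi-likelihood fit over all 8 libraries (4 residual degrees of freedom) and Benjamini-Hochberg adjustment over 6191 features at 0.05. Each test was repeated under 18 alternative settings, among them DESeq2 1.42.0 and limma 3.58.1 (voom). The code was tested on simulated data. Total counts and counting intervals are given with the results. The labels call the replicates biological and do not say how they were grown apart, so the p-values speak only of spread between these samples. For each feature the fit joins its own spread, with 4 residual degrees of freedom, to an estimate shared over features, with a median of 13.59 prior degrees of freedom. The SE of a gene is therefore not its own replicate spread alone. With 2 against 2 libraries an exact permutation test cannot go below p = 0.33, so none was used. The numbers of the replicates are not said to pair the libraries. Members and lists were chosen with earlier results of these data known. Genes named beside the members are, by rule, every list gene that passed in any comparison and the most abundant of each list, the 5 features most like HRP1 and the 1 most like each other member, genes within 500 bases of a member, and NAB2. KAP104, NPL3, SEN1, PAP1, CFT1, REF2, YSH1, PFS2, SYC1 and the uncalled early termination genes other than URA2 lie outside that rule and were named with their values known.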

Additional observations from a re-analysis of the deposited data

How the results depend on the processing

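Under 18 other settings HRP1 stayed higher in every comparison of anchored with unanchored groups, at 0.55 to 1.48 (15 over 0 min), 0.95 to 1.77 (30 over 0 min), 1.31 to 1.87 (30 min over control) and 0.91 to 1.46 (15 min over control). In that order, its calls were lost with snoRNA scaling, on 15 features, at 0.55, 0.95, 1.31 and 0.91, and with mitochondrial scaling, on 4 features, at 1.05, 1.35, 1.34 and 1.05. Those scalings moved the median of all features away from its reported value by -0.84, -0.66, -0.28 and -0.49 with snoRNA features and by -0.33, -0.22, -0.24 and -0.35 with mitochondrial ones, and total library size moved it by -0.18, 0.18, 0.36 and -0.01. Calls were also lost without the 3 libraries with most features at 0, at 1.28 (15 over 0 min) and 1.37 (15 min over control). With the 2 groups alone the call at 30 over 0 min was lost at 1.68, in a fit that called 0 of 6070 features. With 1 library left out HRP1 ranged from 1.31 to 1.48 at 15 over 0 min and from 1.21 to 1.46 at 15 min over control, and a group left with 1 library was assumed to vary like the others. The control over 0 min value of HRP1, 0.05, turned to -0.10 by total size, -0.36 by snoRNA features and -0.09 without the 3 libraries, and ran from -0.09 to 0.19 with 1 library left out.

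Values of the other 4 genes that turned were all uncalled. RNA14 at 30 over 15 min, -0.05, became 0.01 by RLE and by DESeq2, 0.12 by limma-voom, 0.02 without the filter, 0.03 with the 2 groups alone, 0.35 by total size, 0.19 by mitochondrial and 0.02 by snoRNA features, 1.11 without the 3 libraries, and -0.68 to 0.74 with 1 library left out. PCF11 became -0.03 by total size, -0.18 by mitochondrial and -0.69 by snoRNA features at 15 over 0 min, -0.02 by mitochondrial and -0.45 by snoRNA features at 30 over 0 min, and -0.14 by snoRNA features for control over 0 min. PCF11 at 30 min over control was 0.15 by total size. Without the 3 libraries PCF11 was 0.38 at 30 min over control, 0.22 at 15 min over control and -0.14 for control over 0 min. RNA15 at 15 min over control was -0.11 by mitochondrial and -0.18 by snoRNA features. Without the 3 libraries RNA15 was -0.66 at 15 min over control and -0.05 at 30 min over control, and CLP1 was -0.16 at 30 min over control. With 1 library left out PCF11 ran from -0.48 to 0.33 (30 min over control), -0.59 to 0.28 (15 min over control), -0.14 to 0.75 (control over 0 min) and -0.02 to 0.16 (30 over 15 min). RNA15 ran from -0.14 to 1.38 (15 min over control), -0.05 to 1.54 (30 min over control), -0.88 to 0.01 (15 over 0 min) and -0.22 to 0.67 (30 over 15 min), and CLP1 from -0.91 to 0.68 (15 min over control). RNA14 at 15 min over control passed under 7 settings, among them DESeq2 (adjusted p = 0.000875). The cause of these turns was not tested.

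Counts of called features ran over the settings from 0 to 91 (15 over 0 min, 10 as reported), 0 to 442 (30 over 0 min, 171), 67 to 683 (30 min over control, 376), 4 to 281 (15 min over control, 63), 0 to 282 (30 over 15 min, 28) and 5 to 40 (control over 0 min, 5). The replicate numbers are not said to pair the libraries, and same-numbered deviations correlated between -0.26 and 0.11. With the number as a block 17, 179, 396, 96, 37 and 7 features were called, and RNA14 at 15 min over control was 4.93 (edgeR adjusted p = 0.035). RNA14 had 6 to 16 counts in 3 libraries, so its level there carries the widest relative counting intervals of the set.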
